A study of Neotoma stephensi and Rattus norvegicus with 6 samples.

Results

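The genes examined here were those of the interferon response and of innate sensing in the foregut of the woodrat and the lab rat. They were chosen by symbol, as the genes whose name starts with Tlr, Irf, Ifit, Oas or Stat followed by a digit, together with 30 further genes listed by name. The rule found 64 members among the 15481 genes with counts, of which 34 came from the symbols, and all 30 listed genes were present. Further genes of the Tlr, Irf, Ifit, Oas and Stat families were not analysed here, and counts over a family below are counts over the genes with reads. The symbol rule also takes in Irf2bp1, Irf2bp2 and Irf2bpl, which encode partners of IRF2 rather than interferon regulatory factors. Each member had at least 1 woodrat read, as did every gene with counts, while 809 of all genes and 3 members had no lab rat read. Transcripts read in lab rats alone are therefore absent from these results.

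The study compared 3 Stephens' woodrats (Neotoma stephensi) with 3 Sprague Dawley lab rats (Rattus norvegicus), by RNA-Seq of polyA-containing mRNA from the fornix ventricularis, the non-glandular forestomach. Microbes live at high density in the forestomach of woodrats but not of lab rats, and the comparison asks which transcripts differ between the tissues. The woodrats were caught in the wild, were fed juniper foliage and were dissected the day after they reached the laboratory. The lab rats were bought, housed singly for months and fed standard chow. All animals were female. The sample labels call every animal virgin, whereas the methods of the study give this for the lab rats and call it unknown for the woodrats. Ages were not given in the sources used here. Species, diet, origin and microbial load all divide the animals in the same way and cannot be told apart.

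Interferons are secreted signals that put cells into an antiviral state. Pattern recognition receptors start the process: Toll-like receptors survey the cell surface and endosomes, RIG-I-like receptors bind viral RNA in the cytosol, and NOD-like receptors respond to bacterial fragments or assemble inflammasomes. Their signals run through adaptors to interferon regulatory factors (IRFs), and secreted interferon then acts through receptors, Janus kinases and STAT proteins on a large set of interferon-stimulated genes. In squamous epithelia this system operates both in keratinocytes and in resident leukocytes.

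Between 5439642 and 7932637 reads were counted per animal. Reads of both species had been aligned to mouse transcripts, so that a lower abundance and a poorer match to the mouse sequence cannot be told apart for any gene below. The study reported no global bias of this mapping, although woodrat reads had a higher mean substitution rate against mouse than lab rat reads. Its comparison with within-species mapping was shown for smooth muscle genes. Abundances are given as CPM, the read counts scaled to a common library total, after TMM normalization, a scaling that corrects for differences in library composition. Where 3 reads are taken as the limit of detection, that limit lay between 0.355 and 0.586 CPM, for counting error only. The tissue carried markers of squamous epithelium in every animal, with a sum over 9 genes of 19836 to 40962 CPM in woodrats and of 25777 to 42434 CPM in lab rats, whereas the 4 gastric gland markers with counts summed to at most 10.2 CPM in any animal. The overlapping squamous sums did not mean that the single genes were alike. Past the threshold used below, Krt4 was 10.1-fold higher in woodrats. Ivl and Krtdap were 31.1-fold and 5.62-fold higher in lab rats, and the other 6 were not called. Smooth muscle markers (6 genes) summed to between 32779 and 106775 CPM in woodrats and between 9411 and 17413 CPM in lab rats. Leukocyte markers were far apart. The 6 pan-leukocyte genes (Ptprc, Itgb2, Coro1a, Laptm5, Cd53 and Lcp1) summed to between 4.16 and 6.16 CPM in woodrats and between 53.9 and 77.7 CPM in lab rats, and each of the 6 was higher in every lab rat than in every woodrat, 5 of them past the threshold used below. Itgb2 had no read in woodrats 1 and 2, and Cd53 none in woodrat 1. In macrophage and dendritic cell markers, 6 of the 8 with counts were higher in every lab rat, with sums of 7.81 to 29.4 CPM in woodrats against 61.5 to 95.1 CPM in the lab rats. The exceptions were Cd68 and Flt3, whose values overlapped between the species. The lists for T and NK cells (3 genes), B and plasma cells (4 genes) and neutrophils and mast cells (4 genes) had sums of at most 3.66, 4.30 and 22.2 CPM in any animal. The T and NK cell sum was higher in every lab rat, the B and plasma cell sum was higher in every woodrat, and the neutrophil and mast cell sums overlapped. In bulk tissue, fewer cells of a type and less RNA per cell cannot be told apart. The part of leukocyte or smooth muscle content in the differences described below, in either direction, was not tested.

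**Figure D1:**
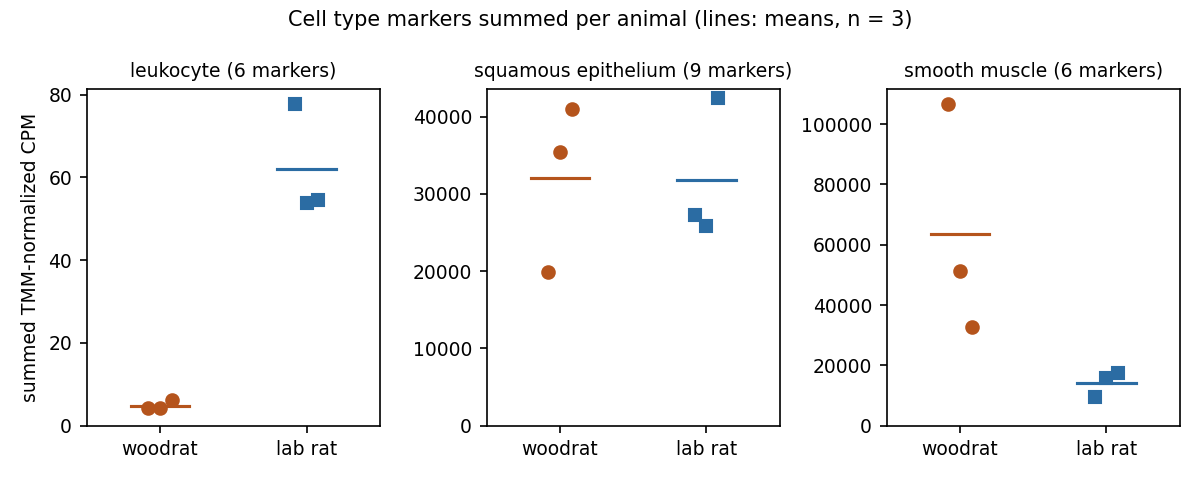
Summed TMM-normalized CPM of leukocyte, squamous epithelium and smooth muscle markers in each animal (points) with the mean of each species (lines, n = 3), on linear axes that start at 0. The leukocyte sums reached at most 6.16 CPM in woodrats, while those of lab rats started at 53.9 CPM, the squamous sums overlapped, and the smooth muscle sums were higher in every woodrat. Single squamous genes differed in both directions.

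A gene was tested where 3 or more animals reached 1 CPM. The test was the quasi-likelihood F-test of edgeR, and a gene was called at a false discovery rate (FDR) below 0.01 over all tested genes. Of the 64 members, 50 passed the filter and 14 were too low to test. Of those 50, 10 were called (20%), the same percentage as among all 12603 tested genes (20%). In lab rats 9 members were more abundant, or 18% of those tested, where 9.71% of all tested genes were, and in woodrats 1 member was more abundant, or 2%, where 10.3% of all tested genes were. The median log2 fold change, given throughout as woodrat over lab rat, was -0.72 over the tested members and 0.03 over all tested genes. These shares and this median carry a selection, because 7 of the 50 tested members reached 1 CPM only in lab rats (374 of all tested genes did, 2.97%). Among them are 5 of the 9 members called toward lab rats (Oas1f, Oas1g, Zbp1, Irf8 and Il18bp). For these 7 a lack of overlap between the species follows largely from the filter. The mean of the leukocyte marker sum was 12.7-fold higher in lab rats, and its part in these calls was not tested. Of the 43 members that reached 1 CPM in animals of both species, 5 were called, 4 toward lab rats (9.3%) and 1 toward woodrats (2.33%). Among the 11907 tested genes of that kind the shares were 7.94% and 8.89%, so that the larger share of members toward lab rats came close to the background without the members that reached 1 CPM only there. At an FDR below 0.05, 18 of the 50 were past the threshold, where 39.9% of all tested genes were. CPM values did not overlap between the species for 20 members that were higher in lab rats and 8 that were higher in woodrats. Among all tested genes 56.2% did not overlap, 27.4% in the first direction and 28.8% in the second.

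**Figure D2:**
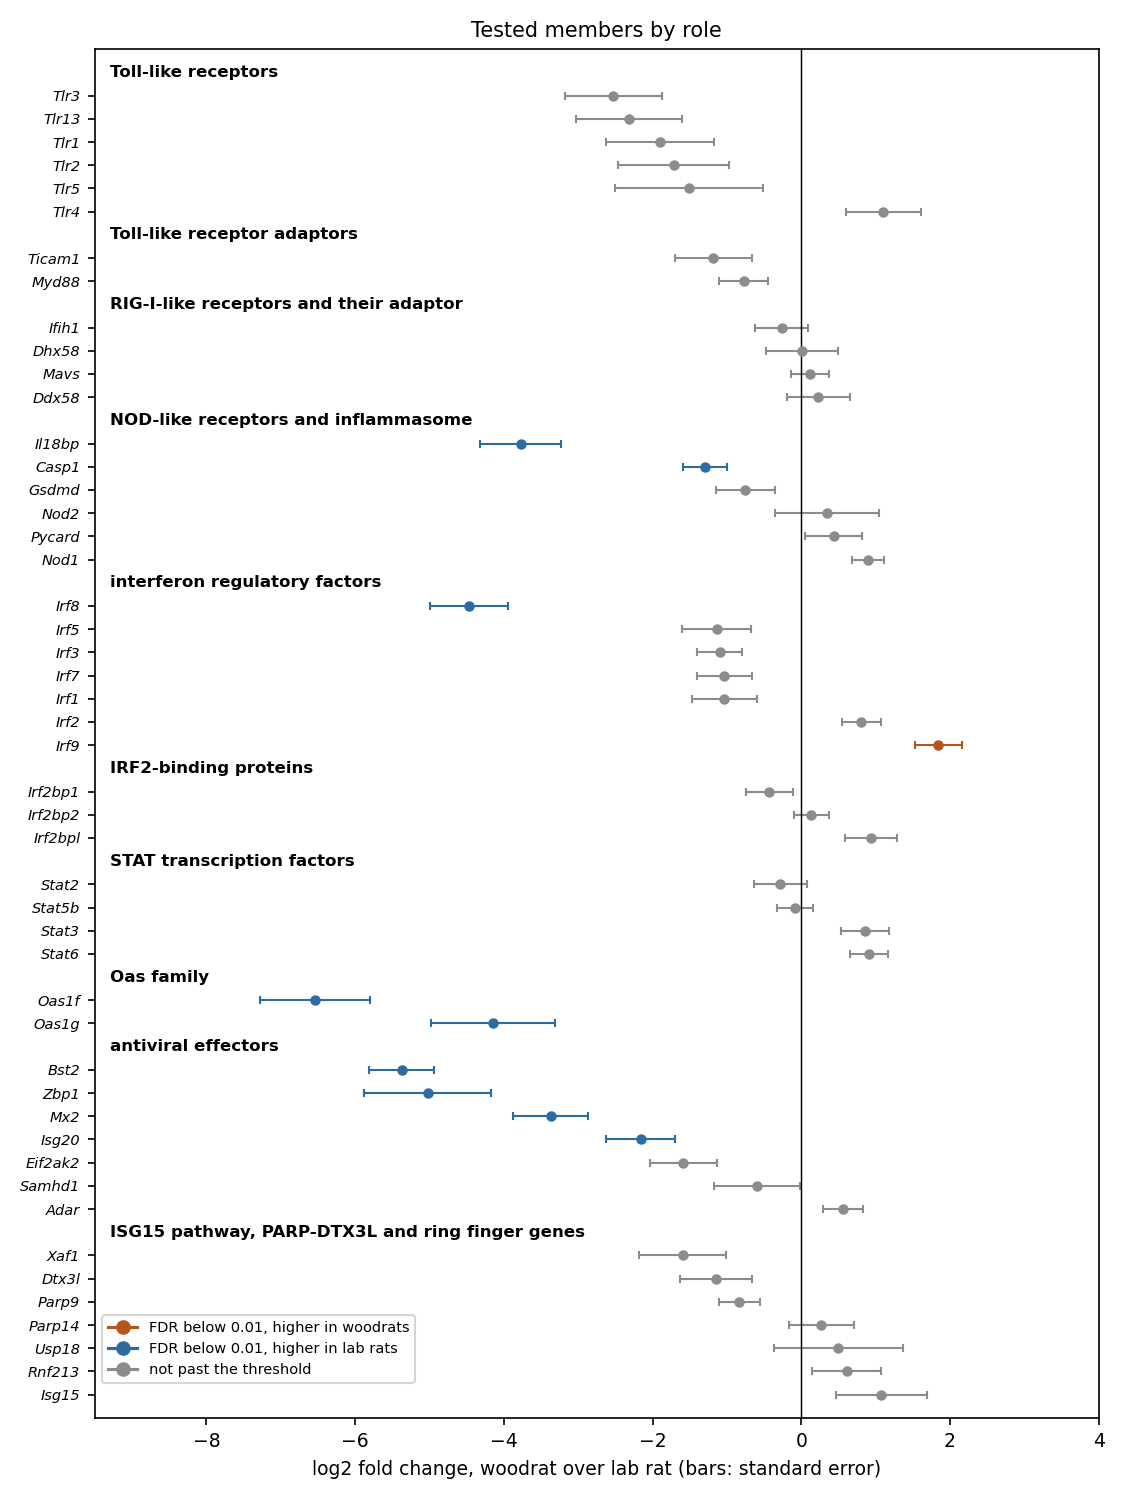
Log2 fold change (woodrat over lab rat) of 48 of the 50 tested members, grouped by role, with standard errors as bars and members past the FDR threshold in colour. The RIG-I-like receptors lie within 0.27 of zero, the called effectors and Oas genes reach from -2.16 for Isg20 to -6.54 for Oas1f, and Irf9 at 1.84 is the only called member to the right of zero.

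Among the Toll-like receptors, transcripts of Tlr1, Tlr2, Tlr3, Tlr5 and Tlr13 had negative log2 fold changes and Tlr4, the receptor for lipopolysaccharide, had a positive one, but none was past the threshold in edgeR (4 of 6 at an unadjusted p below 0.05; DESeq2 called 1, Tlr3). Tlr3, which binds double-stranded RNA in endosomes, came closest. It had 0.391, 1.94 and 0.355 CPM in woodrats 1, 2 and 3, against 6.33, 6.12 and 3.47 in lab rats 1, 2 and 3. Every lab rat was above every woodrat (log2 fold change -2.53, standard error 0.65, FDR = 0.0160). Tlr13, a mouse receptor for bacterial ribosomal RNA, had 0, 2 and 5 reads in the woodrats against 16, 7 and 10 in the lab rats. These low counts did not overlap on the CPM scale (log2 fold change -2.32, standard error 0.71, FDR = 0.0312). Tlr13 reached 1 CPM only in lab rats, so this separation followed largely from the filter. Tlr4 ran the other way, with 3.12, 4.30 and 2.25 CPM in woodrats against 2.23, 1.32 and 0.770 CPM in lab rats (log2 fold change 1.11, FDR = 0.109). Tlr1 and Tlr2, which pair to detect bacterial lipopeptides, had log2 fold changes of -1.90 and -1.72 (FDR = 0.0659 and 0.0972). Like Tlr13, Tlr1 reached 1 CPM only in lab rats. Tlr5, the flagellin receptor, overlapped between the species, with 13, 3 and 0 reads in woodrats against 29, 16 and 6 in lab rats. Tlr6 and Tlr9 were too low to test. Tlr9, the sensor of unmethylated CpG DNA, had 1 read over all woodrats and 4 over all lab rats, a ratio of 4.31 toward lab rats with a 95% counting interval from 0.426 to 212, so that no difference was detectable at this depth.

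The adaptors of these receptors were not called in edgeR or in DESeq2 either, although both had an unadjusted p below 0.05. Myd88, used by most Toll-like receptors, had 12.7, 13.2 and 24.9 CPM in woodrats against 31.3, 31.9 and 23.9 CPM in lab rats. Woodrat 3 lay within the range of the lab rats. Ticam1, the adaptor of Tlr3, was lower in every woodrat, with 0.781, 2.50 and 4.03 CPM against 4.96, 6.12 and 6.16 CPM (log2 fold change -1.19, FDR = 0.0992).

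The RIG-I-like receptors and their adaptor did not separate the species. Ddx58, which encodes RIG-I, had 7.24 ± 2.19 CPM in woodrats against 6.15 ± 2.69 CPM in lab rats (SD, n = 3 each). Ifih1, which encodes MDA5, had 6.25 ± 2.19 and 7.54 ± 1.19 CPM. For both genes the values of the species overlapped. Dhx58 (LGP2, a regulator of both) had 2.29 ± 0.777 CPM in woodrats against 2.24 ± 0.897 CPM in lab rats, and Mavs, the mitochondrial adaptor through which they signal, had 17.5 ± 1.01 and 16.1 ± 2.00 CPM. Log2 fold changes of the 4 genes ran from -0.27 (standard error 0.36) to 0.23 (standard error 0.43), with FDR values from 0.583 to 0.990. In edgeR and in DESeq2 0 of the 4 were called, and 0 had an unadjusted p below 0.05.

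**Figure D3:**
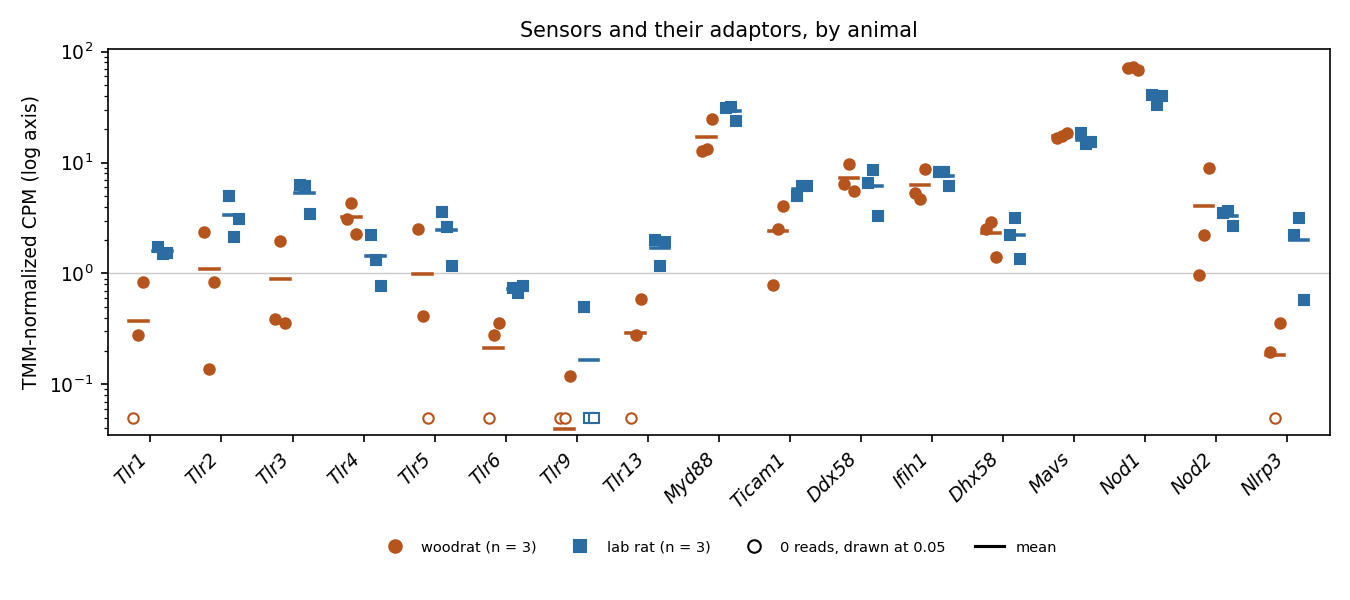
TMM-normalized CPM (log axis) of sensors and their adaptors in each woodrat (circles) and lab rat (squares), with species means as lines (n = 3) and animals without reads as open symbols at 0.05. Ddx58, Ifih1, Dhx58 and Mavs overlap between the species, Tlr3 and Tlr13 lie lower in every woodrat, and Nod1 is higher in every woodrat. Tlr13 passed the filter only through lab rats.

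NOD-like receptors and inflammasome genes were mixed. Il18bp (ENSMUSG00000070427.3), a secreted decoy that neutralizes interleukin-18, was higher in lab rats, and so was Casp1 (ENSMUSG00000025888.5), the inflammasome protease that activates interleukins 1β and 18. Il18bp had 2, 3 and 1 reads in the woodrats against 28, 25 and 27 in the lab rats. The lab rats were close to one another, at 4.27 ± 0.871 CPM against 0.308 ± 0.165 CPM in woodrats (SD, n = 3), 13.6-fold higher (log2 fold change -3.77, standard error 0.55, FDR = 0.00170, edgeR quasi-likelihood test). Il18bp reached 1 CPM only in lab rats, so its lack of overlap followed largely from the filter. Casp1 had 16.0, 23.9 and 29.8 CPM in woodrats against 56.7, 47.5 and 67.8 CPM in lab rats. Its 2.46-fold difference (log2 fold change -1.30, standard error 0.29, FDR = 0.00938) was just inside the threshold, and stayed there without woodrat 3 but for no other animal left out (FDR up to 0.0348). It was also lost with libraries scaled by their totals alone (FDR = 0.0183) and with a filter at 5 CPM (FDR = 0.0103).

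Nod1, which senses a peptidoglycan fragment found mostly in Gram-negative bacteria, ran in the opposite direction and fell just outside the threshold. It had 71.5, 72.2 and 68.2 CPM in woodrats against 40.5, 33.1 and 40.1 CPM in lab rats (log2 fold change 0.90, standard error 0.21, FDR = 0.0119), and DESeq2 called it. The animals of each species were tightly grouped. Nod2, the sensor of muramyl dipeptide, spread from 0.977 to 9.0 CPM among woodrats and covered the range of the lab rats (2.70 to 3.64 CPM). Pycard, which encodes the inflammasome adaptor ASC, and Gsdmd, which encodes the pore protein gasdermin D, also overlapped between the species. Nlrp3, the sensor of the best-known inflammasome, was not tested. It had 1, 0 and 3 reads in woodrats against 18, 19 and 3 in lab rats.

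Of the 8 interferon regulatory factors with counts, Irf8 was called toward lab rats and Irf9 toward woodrats, and the other 6 were not called in edgeR (DESeq2 called Irf3 as well). Irf8 (ENSMUSG00000041515.8) is a transcription factor of macrophages, dendritic cells and B cells. It had 4, 2 and 2 reads in woodrats 1, 2 and 3, or 0.781, 0.278 and 0.237 CPM, and 94, 50 and 39 reads in lab rats 1, 2 and 3, or 11.7, 8.27 and 7.51 CPM. The difference was 22.1-fold (log2 fold change -4.46, standard error 0.53, FDR = 0.000853). Irf8 reached 1 CPM only in lab rats, so its lack of overlap followed largely from the filter. Without woodrat 1 the log2 fold change was -5.07, and the call held in each of the 6 fits that left out 1 animal.

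Irf9 (ENSMUSG00000002325.13) encodes a DNA-binding factor that works with STAT2 in the nuclear response to type I interferon. It was the one member called toward woodrats, with 54.7, 57.3 and 30.8 CPM in woodrats against 15.6, 12.2 and 11.7 CPM in lab rats. The lowest woodrat was above the highest lab rat, with a 3.59-fold difference (log2 fold change 1.84, standard error 0.31, FDR = 0.00303). The call held without woodrat 1 and without woodrat 3, but was lost without woodrat 2 or any of the lab rats (log2 fold change from 1.65 to 2.08, FDR up to 0.0173).

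Among the remaining IRFs, Irf3, the factor activated directly below the RNA sensors, had 68.6, 59.7 and 48.9 CPM in woodrats against 105, 94.1 and 180 CPM in lab rats. Lab rats were higher without overlap (log2 fold change -1.10, standard error 0.31, FDR = 0.0219). Irf2, a repressor and competitor of Irf1, was higher in every woodrat, at 19.6 ± 1.44 CPM against 11.2 ± 1.60 CPM (SD, n = 3; log2 fold change 0.81, FDR = 0.0393). Irf1, Irf5 and Irf7 had log2 fold changes between -1.14 and -1.03 with every lab rat above every woodrat, at FDR values from 0.0534 to 0.0883. The 3 IRF2-binding protein genes were not called in edgeR or DESeq2 (1 of 3, Irf2bpl, had an unadjusted p below 0.05), with log2 fold changes of -0.43 for Irf2bp1, 0.14 for Irf2bp2 and 0.93 for Irf2bpl.

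None of the 5 tested STAT genes was called in edgeR (2 had an unadjusted p below 0.05, and DESeq2 called Stat6). Stat2, the partner of IRF9, did not separate the species. It had 10.4, 14.3 and 15.8 CPM in woodrats against 18.4, 21.2 and 9.63 CPM in lab rats (log2 fold change -0.28, standard error 0.36, FDR = 0.554). Stat6, which serves interleukins 4 and 13, came closest to the threshold, with 127, 158 and 165 CPM in woodrats against 82.8, 94.1 and 61.4 CPM in lab rats (log2 fold change 0.91, standard error 0.25, FDR = 0.0217). Stat3, which serves interleukin-6 family cytokines, was also higher in every woodrat (log2 fold change 0.85, FDR = 0.0650). Stat5b, a mediator of growth hormone signalling, overlapped between the species (log2 fold change -0.09, FDR = 0.807). Stat4 had 10 reads in each species and was not tested.

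Upstream of these factors, a list of 13 interferon receptors, Janus kinases and their inhibitors was examined, all of which were tested. The list had 2 genes called in each direction, or 15.4%, and a median log2 fold change of 0.08. Among all tested genes 9.71% were called toward lab rats and 10.3% toward woodrats. Both chains of the type II interferon receptor were lower in woodrats. Ifngr1 had 14.6, 21.9 and 20.8 CPM in woodrats against 54.0, 58.7 and 70.7 CPM in lab rats (log2 fold change -1.67, standard error 0.26, FDR = 0.00221). Ifngr2 had 6.84, 4.44 and 4.62 CPM against 22.0, 30.1 and 20.03 CPM (log2 fold change -2.19, standard error 0.32, FDR = 0.00184). The animals did not overlap for either chain, and the Ifngr1 call held with any animal left out while that of Ifngr2 was lost without woodrat 2 (FDR = 0.0110). Both kinases that these chains use were higher in woodrats. Jak1 had 295, 198 and 192 CPM in woodrats against 84.4, 93.8 and 46.2 CPM in lab rats (log2 fold change 1.61, FDR = 0.00677), and Jak2 had 101, 77.4 and 77.2 CPM against 31.4, 32.9 and 19.3 CPM (log2 fold change 1.61, FDR = 0.00335). The Jak1 call was kept only without woodrat 3 (FDR up to 0.0220 otherwise), and that of Jak2 was lost without woodrat 2, lab rat 1 or lab rat 2 (FDR up to 0.0132). The type I receptor chains Ifnar1 and Ifnar2 were not called, with log2 fold changes of -0.44 (FDR = 0.267) and 0.10 (FDR = 0.826).

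**Figure D4:**
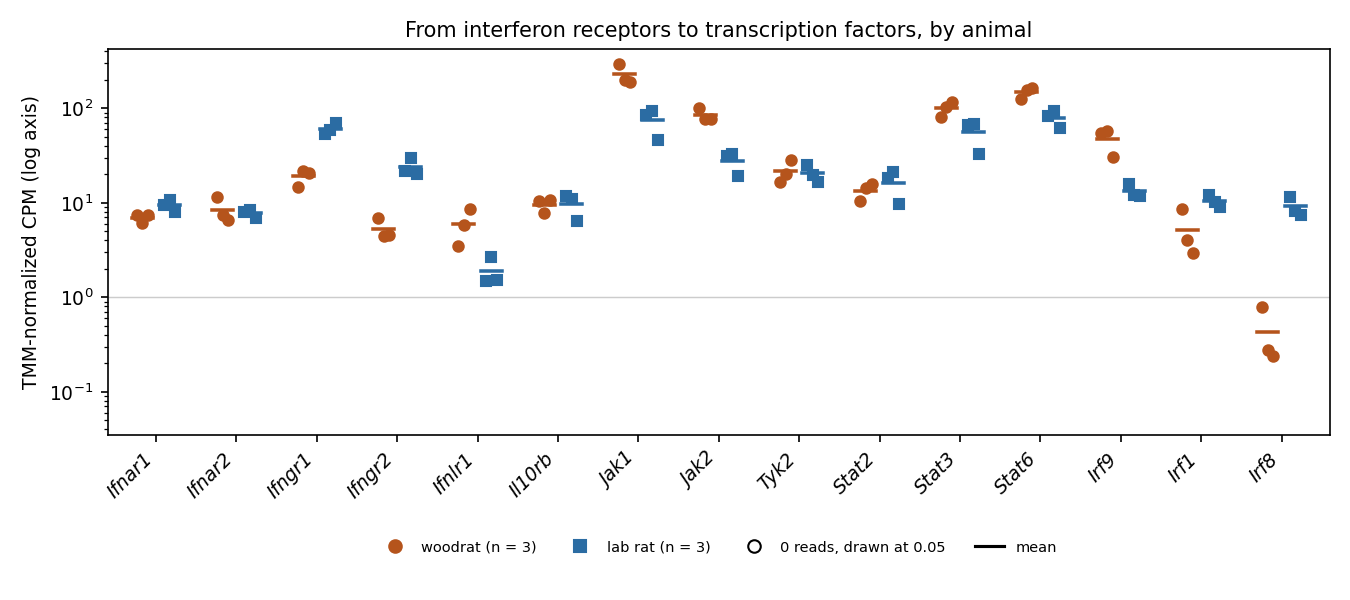
TMM-normalized CPM (log axis) of interferon receptors, Janus kinases, STAT factors and IRFs in each woodrat (circles) and lab rat (squares), with species means as lines (n = 3). Ifngr1, Ifngr2 and Irf8 are lower in every woodrat, Jak1, Jak2 and Irf9 are higher in every woodrat, and Stat2 overlaps. Irf8 passed the filter only through lab rats.

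Among the antiviral effectors, the products at the end of the response, 4 of the 7 tested were called and all 4 were higher in lab rats, where 9.71% of all tested genes were. Of the 4, Zbp1 reached 1 CPM only in lab rats. Bst2 (ENSMUSG00000046718.7) encodes tetherin, which holds budding virions on the cell surface. It had 4, 13 and 10 reads in woodrats 1, 2 and 3, against 303, 289 and 396 in lab rats 1, 2 and 3, or 0.781, 1.80 and 1.18 CPM against 37.6, 47.8 and 76.3 CPM. The lowest lab rat was far above the highest woodrat, and the difference was 41.4-fold (log2 fold change -5.37, standard error 0.44, FDR = 0.000249). Fits that left out 1 animal gave -5.76 to -5.04, and all 6 of them called the gene.

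Mx2 (ENSMUSG00000023341.13) encodes a dynamin-like GTPase that blocks incoming viruses. It had 8.20, 3.47 and 2.37 CPM in woodrats against 54.7, 58.1 and 28.9 CPM in lab rats, again without overlap and 10.3-fold apart (log2 fold change -3.37, standard error 0.51, FDR = 0.00197). Without woodrat 1, the highest of its species, the log2 fold change was -4.02, and without woodrat 2 the FDR was 0.0110. Its paralog Mx1 was too low to test, with 2 reads over the woodrats and 9 over the lab rats (ratio 4.84, 95% counting interval 1.00 to 46.1). Each read was assigned to its best-matching mouse gene, so that reads of a rodent Mx gene could fall on either. With the pair summed the log2 fold change was -3.35 (FDR = 0.00184), a sum that holds uniquely assigned reads only.

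Isg20 (ENSMUSG00000039236.17), an exonuclease that degrades RNA, had 3.12, 3.75 and 2.96 CPM in woodrats against 10.2, 8.93 and 25.2 CPM in lab rats. Lab rat 3 was well above the other lab rats. The log2 fold change of -2.16 (standard error 0.47, FDR = 0.00796) became -1.54 without lab rat 3, and the call was lost with any of the 6 animals left out (FDR from 0.0113 to 0.0268). Zbp1 (ENSMUSG00000027514.13), a sensor of Z-form nucleic acid that can trigger cell death, had 1 read over the woodrats, in woodrat 2, and 13, 19 and 9 reads in the lab rats. The ratio of 44.1 toward lab rats had a 95% counting interval from 7.49 to 1785, and the FDR was 0.00310. Without woodrat 2, where the woodrats had 0 reads, it was at least 9.61-fold higher in lab rats, against a floor of 3 reads over the group. The call was lost without woodrat 2, lab rat 2 or lab rat 3 (FDR up to 0.0120).

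Effectors outside this pattern were Adar, Samhd1 and Rsad2. Adar, which edits adenosine in double-stranded RNA, had 38.7, 36.8 and 35.2 CPM in woodrats against 30.7, 26.3 and 17.9 CPM in lab rats, so that each woodrat was higher (log2 fold change 0.56, FDR = 0.124). Samhd1, a nucleotide hydrolase that starves reverse transcription, overlapped between the species. Rsad2, which encodes viperin, had 3 woodrat reads and 2 lab rat reads, too few for any measure of a difference. Eif2ak2, the double-stranded RNA-activated kinase PKR, had 2.34, 0.972 and 2.37 CPM in woodrats against 5.71, 7.11 and 4.24 CPM in lab rats. It separated the species without passing the threshold (log2 fold change -1.59, standard error 0.45, FDR = 0.0240), and DESeq2 called it.

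**Figure D5:**
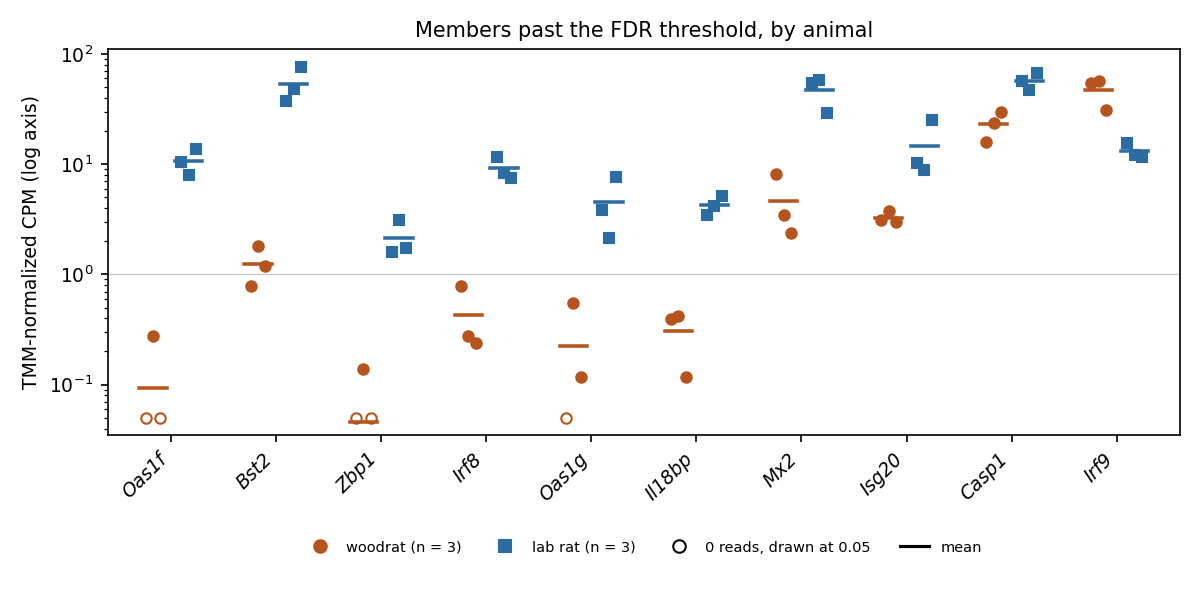
TMM-normalized CPM (log axis) of the 10 called members in each woodrat (circles) and lab rat (squares), with species means as lines (n = 3) and animals without reads as open symbols at 0.05. The species do not overlap in any of them, and Irf9 is the gene with woodrats on top. Woodrats stay below 1 CPM in Oas1f, Zbp1, Irf8, Oas1g and Il18bp. These genes passed the filter only through lab rats, so their lack of overlap follows largely from it.

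The Oas genes encode enzymes that make 2'-5' oligoadenylate on binding double-stranded RNA, which activates RNase L. Oas1f (ENSMUSG00000053765.4) had 0, 2 and 0 reads in woodrats 1, 2 and 3, against 85, 48 and 71 in lab rats 1, 2 and 3. All woodrat reads came from woodrat 2, and the ratio of 110 toward lab rats had a 95% counting interval from 30.0 to 913 (FDR = 0.000782). The fitted log2 fold change of -6.54 became -5.90 without woodrat 3, and the call held with any animal left out. Without woodrat 2 it was at least 47.8-fold higher in lab rats, against a floor of 3 reads over the group. Oas1g (ENSMUSG00000066861.13) had 0, 4 and 1 reads against 31, 13 and 40 reads, 17.7-fold higher in lab rats in the fit over all animals (log2 fold change -4.14, standard error 0.84, FDR = 0.00602). Like Oas1f, it reached 1 CPM only in lab rats. Most of its woodrat reads were again from woodrat 2, without which the ratio was 59.0 (95% counting interval 10.3 to 2359), and the call was kept only without lab rat 2 (FDR up to 0.0220 otherwise). Oas1a had 1 woodrat read and no lab rat read, and Oas2 had 2 woodrat reads and 4 lab rat reads. The mouse has several Oas1 copies, so that the division of rat or woodrat reads among Oas1a, Oas1f and Oas1g is uncertain. Summed over these copies, the woodrats had 0, 7 and 1 reads and the lab rats 116, 61 and 111 reads (log2 fold change -5.25, standard error 0.77, FDR = 0.00177).

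Ifit genes encode proteins that bind foreign RNA ends and block its translation, and all 5 with counts were too low to test. Ifit2 had 2, 0 and 4 reads in woodrats against 40, 30 and 5 in lab rats, with no overlap on the CPM scale (the highest woodrat at 0.474 CPM, the lowest lab rat at 0.963 CPM). Ifit1 ran the other way, with 2, 5 and 11 reads in woodrats and none in lab rats, or at least 5.57-fold higher in woodrats against a floor of 3 reads over the group. Ifit1bl1, Ifit1bl2 and Ifit3b had at most 3 reads in either species and gave no measure of a difference. Ifit1, Ifit1bl1 and Ifit1bl2 are near copies, and their summed reads (3, 7 and 12 in woodrats, 0, 2 and 0 in lab rats) were still below the filter.

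Members of the ISG15 conjugation pathway and of the PARP and ring finger groups did not pass the threshold in edgeR or DESeq2 (0 of 7 tested, with 3 at an unadjusted p below 0.05), and their median log2 fold change was 0.27. Isg15, a ubiquitin-like modifier and one of the most used reporters of interferon exposure, had 5.08, 1.80 and 1.30 CPM in woodrats against 1.37, 0.827 and 1.54 CPM in lab rats. Woodrat 1 was high, and woodrat 3 lay within the range of the lab rats (log2 fold change 1.07, FDR = 0.191). Usp18, the protease that removes ISG15, overlapped as well, as did Parp14 and Rnf213. Parp9, which works with the ubiquitin ligase Dtx3l in interferon signalling, was lower in every woodrat, with 8.79, 12.5 and 10.4 CPM against 17.7, 21.0 and 17.9 CPM (log2 fold change -0.83, standard error 0.27, FDR = 0.0401). Xaf1, an interferon-induced promoter of apoptosis, was also lower in every woodrat at low counts (log2 fold change -1.60, FDR = 0.0581). Herc6, the mouse ligase for ISG15, had 15 reads in each species and was not tested.

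Other genes of the same pathways were followed in lists, which were chosen with earlier results of these data known. In all 109 of these genes had counts and 89 were tested, of which 17 were called toward lab rats (19.1%, where 9.71% of all tested genes were) and 4 toward woodrats (4.49%, where 10.3% were), with a median log2 fold change of -0.30. Of the 17, 6 reached 1 CPM only in lab rats (Aim2, Il1b, Nlrp10, Apol9b, Sp100 and Uba7). Among the 82 genes that reached it in both species, 11 were called toward lab rats (13.4%, against the 7.94% given above). With libraries scaled by their totals alone the calls were 15 and 1, those of Jak1, Jak2, Map3k7, Unc93b1 and Ddx41 being lost (FDR up to 0.0193). Among 51 further interferon-stimulated genes, 49 had counts, 37 were tested, 6 were called toward lab rats and 1 toward woodrats. The share called, 18.9%, was near the 20% of all tested genes, and 3 of the 6 (Sp100, Uba7 and Apol9b) reached 1 CPM only in lab rats. Sp100, a nuclear body protein, had 0.781, 0.416 and 0.237 CPM in woodrats against 7.82, 8.77 and 7.13 CPM in lab rats. Lgals3bp, a secreted glycoprotein, had 2.93, 1.11 and 2.96 CPM against 21.8, 13.7 and 20.2 CPM. Neither overlapped, which for Sp100 followed largely from the filter, and both were called with any animal left out (log2 fold changes -4.09 and -2.99). Uba7, the enzyme that activates ISG15, had 0.586, 0.416 and 0.355 CPM in woodrats against 2.85, 4.96 and 4.04 CPM in lab rats (log2 fold change -3.11, FDR = 0.00231), and its call was lost without woodrat 2 or lab rat 2 (FDR up to 0.0125). Gbp2, a guanylate-binding protein, and Apol9b were called as well (FDR = 0.00674 and 0.00514). The call of Gbp2 was kept only without woodrat 1, and that of Apol9b, which had 1 woodrat read, in none of the 6 fits that left out 1 animal (FDR up to 0.0284 and 0.0188). Znfx1, an RNA helicase of antiviral defence, was the 1 gene of this list called toward woodrats, with 60.7, 56.1 and 40.4 CPM against 14.3, 15.4 and 8.67 CPM (log2 fold change 2.03, FDR = 0.00202). The woodrats were well above the lab rats, and the call was lost without woodrat 2 only (FDR = 0.0111).

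Of 28 co-receptors, adaptors and kinases below the sensors, 26 were tested, 4 were called toward lab rats and 1 toward woodrats, with a median log2 fold change of -0.09. The share called, 19.2%, was near the 20% of all tested genes. Unc93b1, the chaperone that delivers Tlr3 and Tlr9 to endosomes, had 0.391, 2.91 and 2.37 CPM in woodrats against 17.9, 14.6 and 13.3 CPM in lab rats (log2 fold change -2.95, FDR = 0.00406). Cd14, the lipopolysaccharide co-receptor of Tlr4, had 1.56, 0.833 and 1.54 CPM against 7.69, 5.46 and 6.55 CPM (log2 fold change -2.32, FDR = 0.00365). Lab rats were higher without overlap in both, while Tlr4 itself was not. Ikbke, a kinase that activates IRF3, and Tank, its scaffold, were lower in woodrats (log2 fold changes -1.83 and -1.31), and Map3k7, which encodes the kinase TAK1, was higher (log2 fold change 1.85, FDR = 0.00447). Each of these calls was lost without at least 1 animal: that of Ikbke without lab rat 1, that of Map3k7 without woodrat 2 or lab rat 1, that of Tank without woodrat 2, lab rat 1 or lab rat 2, and those of Unc93b1 and Cd14 without woodrat 2 or any lab rat (FDR from 0.0105 to 0.0218 as the highest of each). Tbk1, the kinase most directly above IRF3, was not called (log2 fold change 0.51, FDR = 0.160).

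Cytosolic DNA sensing genes included 2 called toward lab rats among 5 tested (40%, where 9.71% of all tested genes were). Of the 4 that reached 1 CPM in both species, 1 was called toward lab rats (25%, where 7.94% of such genes were). Aim2, the DNA sensor of an inflammasome, had 2, 2 and 0 reads in woodrats against 57, 39 and 23 in lab rats. It was called with any animal left out (log2 fold change -4.80, standard error 0.69, FDR = 0.00171), with a log2 fold change of -4.12 without woodrat 3. Aim2 reached 1 CPM only in lab rats, so its lack of overlap followed largely from the filter. Ddx41, a helicase linked to DNA sensing, had 28.9, 29.3 and 38.3 CPM against 60.8, 61.9 and 89.2 CPM (log2 fold change -1.13, FDR = 0.00984), a call that with 1 animal left out was kept only without woodrat 3 (FDR up to 0.0448 otherwise), and that was lost with no filter (FDR = 0.0105) and with one at 5 CPM (FDR = 0.0102). Mb21d1 (cGAS) and Tmem173 (STING) were not called, with FDR values of 0.555 and 0.159. Of 14 other inflammasome genes, 13 had counts. The gene without counts was Casp4, which the study placed among those most overexpressed in lab rats. Card9, Nlrp10 and Il1b were called toward lab rats among 8 tested, or 37.5%. Of all tested genes 9.71% were called toward lab rats, and Nlrp10 and Il1b reached 1 CPM only there. Card9, an adaptor of antifungal receptors, had 16.4, 30.7 and 27.7 CPM against 90.3, 73.8 and 136 CPM (log2 fold change -2.0, FDR = 0.00299). Nlrp10 had 9 reads over the woodrats and 82 over the lab rats (log2 fold change -3.17, FDR = 0.00407). Il1b, the inflammasome-activated cytokine, had 2 woodrat reads and 36 lab rat reads, a ratio of 19.4 with a 95% counting interval from 4.99 to 166 (FDR = 0.00388), and a fitted log2 fold change of -4.02 that became -3.37 without woodrat 3. Their calls were lost without at least 2 of the 6 animals each, woodrat 2 among them for all of the 3 genes (FDR up to 0.0165). Il18, the target of Il18bp, overlapped between the species (25.8, 45.5 and 86.9 CPM in woodrats against 65.2, 25.6 and 57.0 CPM in lab rats).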

How the data were processed

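Trimmomatic and FLASH were used by the authors to trim reads and merge overlapping pairs. They aligned the result by cross_match to the GENCODE M7 set of protein-coding mouse transcripts, and deposited raw counts of uniquely assigned reads per mouse gene on the correct strand. Tool versions were not given in the sources used here. Fewer alignments and fewer transcripts of a species cannot be told apart.

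CPM values, TMM factors and the quasi-likelihood F-test (method before edgeR 4, species as the only term, prior count 0.125, Benjamini-Hochberg adjustment) came from edgeR 4.0.16 in R 4.3.3, and were tested on simulated data. A standard error is the log2 fold change divided by the square root of F. Counting intervals (exact binomial, 95%) cover counting error only. Litters of the animals were not named. The p-values set the difference between the species against the spread among the 3 animals of each. That spread was estimated for each gene with information shared over all tested genes. Libraries of a species differed beyond sampling noise (chi-square per degree of freedom from 10.1 to 121).

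Members, lists and rules were chosen with earlier results of these data known. Named genes were the called members, those not overlapping at an FDR below 0.05, those with at most 3 reads in a species, and the 5 called genes of largest change per pathway list. Other named genes were chosen after their values were seen. Alternatives were DESeq2 1.42.0, its size factors, library totals, no filter, a filter at 5 CPM, the edgeR 4 method, a prior count of 2, an FDR of 0.05, summed families, a replicate block, and each animal left out. Fits that left out an animal kept the filter set over all animals. Values of 2 uncalled members are not reported here.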

Additional observations from a re-analysis of the deposited data

How the results depend on the processing

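No called member changed direction under any alternative that was run, and the calls of Bst2, Irf8 and Oas1f held under all those that tested them as single genes. Over all genes, the count of 2516 became 3916 with DESeq2, 716 with the replicate block and 5026 at an FDR below 0.05, and ranged from 898 to 2626 with 1 animal left out. For the members, the count of 10 became 6 with the filter at 5 CPM (33 members tested), 4 with the replicate block (Bst2, Irf8, Oas1f and Mx2) and 18 at an FDR below 0.05, and ranged from 5 to 8 with 1 animal left out. DESeq2 called 15. For the pathway lists, the count of 21 became 33 with DESeq2, 4 with the replicate block and 37 at an FDR below 0.05, and ranged from 6 to 21 with 1 animal left out. Without woodrat 2 the 3 counts were 898, 5 and 6, and without lab rat 3 the member count was also 5. The filter at 5 CPM lost Casp1, and left Il18bp, Oas1g and Zbp1 untested. Replicate numbers did not pair the animals: deviations from the species means correlated at -0.289, -0.0881 and -0.279 for numbers 1, 2 and 3, so the replicate block stands for a shared number only. DESeq2's size factors, the edgeR 4 method, no filter, library totals and summed families gave member counts of 10, 10, 10, 9 and 9. With library totals the share of calls toward woodrats over all genes was 44.7%, where it had been 51.4%. For the members with few woodrat reads (Oas1f, Oas1g, Zbp1 and Il18bp), depth limits the size of the fold change. A prior count of 2 changed no call, and moved the log2 fold change from -6.54 to -4.80 for Oas1f, from -5.02 to -2.82 for Zbp1, from -4.14 to -3.17 for Oas1g, from -3.77 to -2.93 for Il18bp and from -4.46 to -3.75 for Irf8. In the pathway lists it moved the log2 fold changes of Aim2, Il1b, Nlrp10, Apol9b, Sp100 and Uba7 to -3.65, -2.44, -2.57, -2.31, -3.45 and -2.51.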
